A study of Mus musculus with 6 samples.

Results

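The genes described are the clustered replication-dependent histone genes of the mouse, the protein-coding genes of GENCODE M21 whose symbol begins with Hist1h, Hist2h, Hist3h or Hist4h. There are 67 of them. Of these, 57 were listed as target genes in at least 1 of the 2 enhancer prediction tables, beside 32049 genes in all, 55 in Ctr-OPCs versus 51 in IFN-γ-OPCs, and 49 were listed in both. The cells were primary oligodendrocyte precursor cells (OPCs) from brains of Sox10-Cre/RCE mice, in which the Cre labels the whole oligodendrocyte lineage with EGFP. The labels give the strain as C57BL/6j, while the study's methods place only the Cre parent on it and the RCE reporter parent on a mixture of C57BL/6 and CD1. Per the study's methods, pups of postnatal day 4 to 6 and of both sexes were used, several brains were pooled in a preparation, and OPCs were selected by sorting for Sox10-GFP or with magnetic beads against CD140a. Ctr-OPCs stayed in proliferation medium, and IFN-γ-OPCs were given 100 ng/mL IFN-γ in that medium, beginning 24 h after passaging; the culture methods state 48 h of treatment. Each table pools the 3 H3K27ac HiChIP libraries of a condition, so no value below has a replicate error, no test between conditions was possible, and the depth behind a value is unknown. Where values are given as a pair, Ctr-OPCs come first.

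Histones are the proteins that DNA is wound around. H2A, H2B, H3 and H4 form the nucleosome core and H1 binds the linker DNA between nucleosomes. Most histone protein is made in S phase from intronless genes that lie in dense clusters, and their mRNAs end in a conserved stem-loop, bound by SLBP, in place of a poly(A) tail. Transcription of these genes is organised at the histone locus body, which is built around NPAT. OPCs kept in proliferation medium divide, and IFN-γ is a cytokine made by immune cells.

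The members matched their label by sequence. A stem-loop of 16 bases lay within 150 bases after the stop codon of 63 of the 67 genes, against 2 of 21685 other protein-coding genes, H2afx and H2bfm. The histone 3′ stem-loop consensus was searched on the sense strand, with either pyrimidine or either purine allowed where the arms vary and any base at 1 loop position. The 4 members without this exact pattern were Hist2h2be, Hist1h2an, Hist1h3g and Hist1h4a. The motif is shown for members of 4 families that are described here for their connections or for an element that lies in them, read from GRCm38 (mm10), 5′ to 3′ on the gene's strand, with the stem-loop in capitals.
Hist1h1d, chr13:23555782-23555807, strand +: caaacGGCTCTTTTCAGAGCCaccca
Hist1h2be, chr13:23585526-23585551, strand -: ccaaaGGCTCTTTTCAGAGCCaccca
Hist1h3e, chr13:23561898-23561923, strand -: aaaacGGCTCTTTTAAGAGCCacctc
Hist1h4d, chr13:23581945-23581970, strand +: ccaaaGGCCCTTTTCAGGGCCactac
Among the members there were 6 distinct stem-loop sequences, and the one shown for Hist1h1d and Hist1h2be was shared by 41 genes.

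The largest group was Hist1 on chromosome 13 with 54 genes. It fell into a first subcluster of 23 genes with start sites from 21716143 to 22043214 and, 1488 kb away, a second of 31 genes from 23531050 to 23934462. Hist2 held 10 genes on chromosome 3 over 49.9 kb, Hist3 held 2 genes on chromosome 11, and Hist4h4 was alone on chromosome 6. The 67 start sites occupied 37 bins of 5 kb, the resolution of the contact map, and 52 genes shared a bin with another member. Members of 1 bin had gene totals that differed by at most 0.0111%, so they are not independent observations, and distinct bins are counted beside genes below. In 13 cases members faced away from each other with start sites at most 1000 bp apart, 12 of them an H2A gene beside an H2B gene, at a median distance of 268 bp over the 13.

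Promoter motifs differed between the families. In RefSeq promoters of 300 bases (GRCm38.p6; 250 before and 50 after the start), searched on both strands, CCAAT was present in all promoters of H1, H2A, H2B and H3 members and in 3 of 12 H4 promoters, against 37.4% of all 32817 promoters. TATAAA was present in 35 of the 62 members with a promoter sequence, against 13.6% of all promoters. The octamer ATTTGCAT, the site of the POU factor OCT1, was found in 7 of 16 H2B genes and 7 of 18 H2A genes and in no H1, H3 or H4 promoter, against 1.74% of all promoters. These 14 genes had 11 distinct octamer sites, since in 3 divergent pairs, Hist1h2ah with Hist1h2bk, Hist1h2ae with Hist1h2bg and Hist1h2aa with Hist1h2ba, the overlapping windows hold the same site. The promoter of Hist1h2bg, which faces Hist1h2ae, is shown as an example of such a divergent pair, chr13:23571150-23571449, strand +, with the CCAAT box, the TATAAA box and the octamer in capitals in either direction.
Hist1h2bg: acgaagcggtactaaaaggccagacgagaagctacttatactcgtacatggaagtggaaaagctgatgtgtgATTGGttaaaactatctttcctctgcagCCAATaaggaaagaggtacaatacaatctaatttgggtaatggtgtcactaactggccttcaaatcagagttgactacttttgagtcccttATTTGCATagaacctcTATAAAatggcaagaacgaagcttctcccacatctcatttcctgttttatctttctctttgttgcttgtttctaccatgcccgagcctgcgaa

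Promoter activity of the members was high in both conditions. The tables give each target gene a promoter activity quantile, its rank among the promoters of that condition, and list genes from 0.4 upward. The median over members was 0.904 in Ctr-OPCs versus 0.905 in IFN-γ-OPCs, against 0.804 and 0.803 over protein-coding genes, and 51 of 55 and 46 of 51 members lay above 0.8, where 51.1% and 50.9% of protein-coding genes lay. H2A and H2B genes ranked highest, with medians of 0.952 and 0.950 in Ctr-OPCs and 0.956 and 0.953 in IFN-γ-OPCs. In the 12 divergent pairs of an H2A with an H2B gene the starts lie at most 306 bp apart. The part of the partner's signal in these ranks was not tested. The medians of the H1 genes were 0.817 (5 genes) and 0.859 (4 genes), and without Hist1h1d and Hist1h1t, described below, 0.902 in each (3 genes). The ranks moved little between conditions. Over the 49 members listed in both, 28 were higher with IFN-γ (57.1%, against 49.5% of all genes and 47.4% of protein-coding genes) and 21 lower. The differences ran from -0.0599 to 0.0518.

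A few members had low ranks. Hist1h1t, the H1 of the male germ line, was listed in Ctr-OPCs alone at 0.506, although Hist1h4c in the same bin was listed in both. Hist1h2ba and Hist1h2aa, testis-type H2B and H2A genes at the far end of the second Hist1 subcluster, were listed in IFN-γ-OPCs alone at 0.549 and 0.488. Hist1h1d, a somatic H1 gene, had 0.481 and 0.449. Its GENCODE start, which the tables use, lies 1770 bp from its RefSeq start, and this was the only member of the 62 whose nearest RefSeq start was over 500 bp away.

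**Figure D1:**
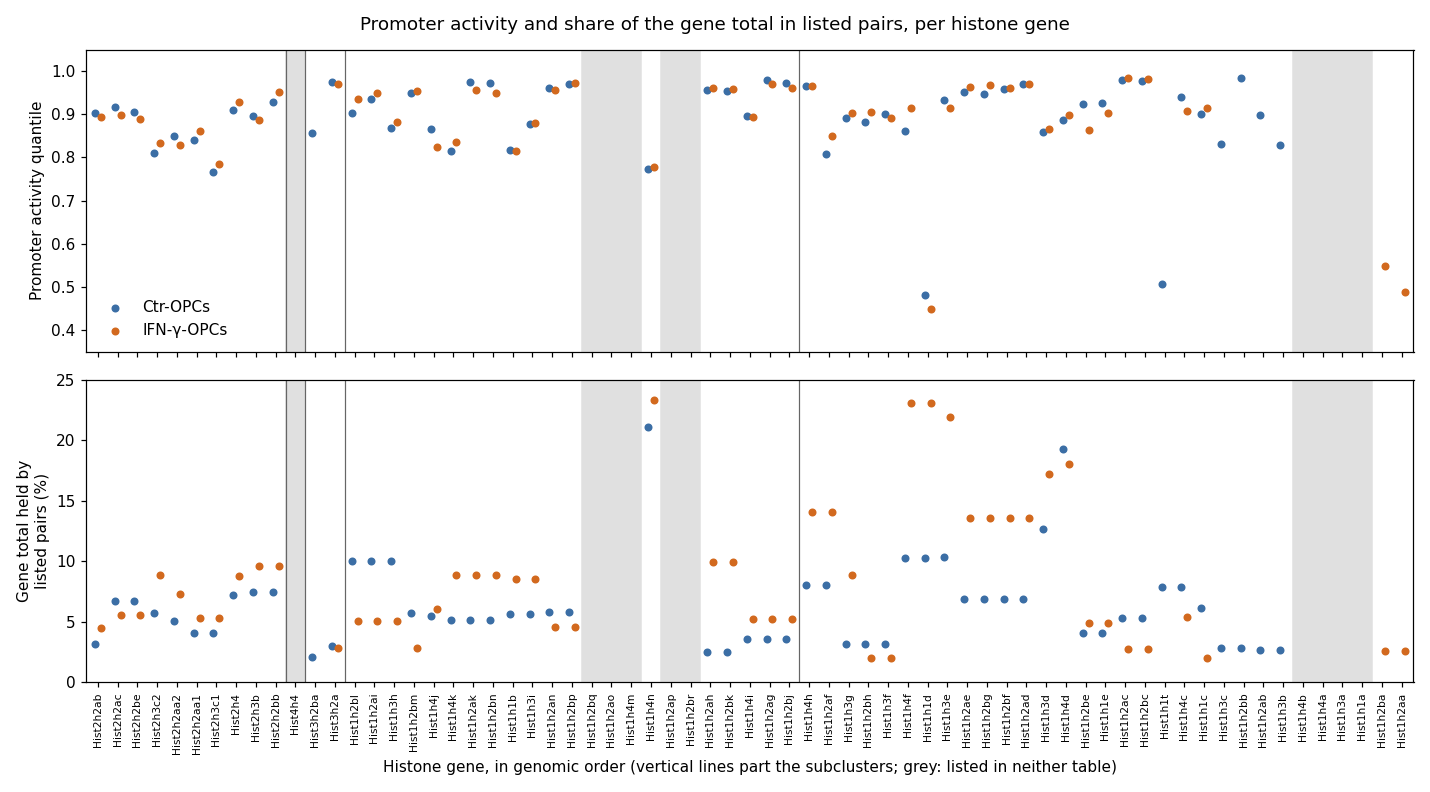
Promoter activity quantile (top) and the percent of the gene total held by listed pairs (bottom) for the 67 histone genes in genomic order, in Ctr-OPCs (blue) and IFN-γ-OPCs (orange). Most quantiles sit above 0.8 in both conditions, while the listed share is highest for Hist1h4n and, in IFN-γ-OPCs, around Hist1h4f, Hist1h1d and Hist1h3e.

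Not listed in either table were 10 members. Of these, Hist1h2bq, Hist1h2ao, Hist1h4m, Hist1h2ap and Hist1h2br lie in the first Hist1 subcluster, and the 1001 bp around each of their starts had another copy in the genome at 95% identity or more over at least 80% of its length. Such a copy was found for 4 of the 57 listed members, Hist2h3c2, Hist2h2aa2, Hist2h3c1 and Hist1h4n. Per the study's methods, reads that map to several places were removed from the ATAC-seq input, and the part of this in the missing genes was not tested. The other members listed nowhere were Hist1h4b, Hist1h4a, Hist1h3a and Hist1h1a, neighbours in the second subcluster, and Hist4h4. Another 6 genes were listed in Ctr-OPCs alone and 2 in IFN-γ-OPCs alone.

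The ABC (activity-by-contact) score of an element for a gene is its activity times its contact with the gene, divided by the sum of that product over all elements around the gene, here called the gene total. A score is thus a share of 1 gene's total, and a score above 0.05, the cut-off of the study's methods, is called a connection. Deposited pairs start at 0.02, and elements of the promoter class are not listed. Histone genes had 96 pairs with 23 elements in Ctr-OPCs and 112 pairs with 26 elements in IFN-γ-OPCs. Connections numbered 13 and 20, against 11648 and 12410 over all genes. They joined 13 of 55 listed members with 7 elements in Ctr-OPCs (23.6%, against 34.3% of all listed genes) and 15 of 51 members with 10 elements in IFN-γ-OPCs (29.4%, against 35.6%). When members of 1 bin are taken as 1, there were 9 and 14 links.

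By family, the H3 genes went from 4 to 8 connections and the H4 genes from 4 to 6, 1 of these gains being that of Hist1h4n described below. H1 genes had 3 in each condition, H2B genes went from 1 to 2 and H2A genes had 1 in each. Among H2A and H2B genes, which had the highest promoter ranks, 1 of 15 and 1 of 15 listed genes had a connection in Ctr-OPCs and 1 of 15 and 2 of 14 with IFN-γ. More connections with IFN-γ were found for 7 of 57 members (12.3%) against 14.9% of all genes, and fewer for 1 (1.75%) against 13% of all genes. The share with more lay near that of all genes. The count with fewer depended on the setting: it was 4 (7.02%, against 13.6% of all genes) when equal numbers of top-scoring pairs were taken from both tables, 7 (12.3%, against 20.3%) on the deposited power-law score and 15 (26.3%, against 35.7%) over all deposited pairs. In these 3 settings 7 (12.3%, against 13.6%), 9 (15.8%, against 21.5%) and 23 members (40.4%, against 42.4%) had more. With a score above 0.1 there were 4 and 3 connections, and 0 members had more, against 3.66% of all genes, and 1 fewer, against 3.2%.

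The 2 elements with the most histone targets lay in the second Hist1 subcluster. The first was an element over the gene Hist1h1d (chr13:23554897-23555777 in Ctr-OPCs, chr13:23554925-23555774 in IFN-γ-OPCs). It overlaps coding sequence and UTR of Hist1h1d and holds its RefSeq start at 23555032. Its activity was 2.66 in Ctr-OPCs versus 3.10 in IFN-γ-OPCs, above 93.1% and 96.4% of listed elements. It was listed with 10 histone genes in Ctr-OPCs versus 14 in IFN-γ-OPCs. For Hist1h1d and its bin neighbour Hist1h4f, an H4 gene, the score was 0.102 in Ctr-OPCs versus 0.127 in IFN-γ-OPCs, with a contact, here always with the pseudocount the model adds, of 0.0658 and 0.0737. For Hist1h3e, an H3 gene 7.03 kb away, it was 0.0687 and 0.0893. Activity and contact were both higher in IFN-γ-OPCs for these 3 pairs.

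The second lay in Hist1h2be, an H2B gene (chr13:23585284-23586158 in Ctr-OPCs, chr13:23585313-23586156 in IFN-γ-OPCs). It was the most active element paired with a histone gene, at 3.65 and 3.80, above 97.2% and 98.3% of listed elements, and had 11 and 14 histone targets. The tables place the start of Hist1h2be at 23621124. The element overlaps the coding sequence of the gene and holds its second RefSeq start, at 23585970, which lies 35154 bp from the start in the tables. Its highest scores were with Hist1h4d, 0.125 in Ctr-OPCs versus 0.114 in IFN-γ-OPCs, and with Hist1h3d, 0.0636 and 0.0834. The distance to Hist1h3d, 9.96 and 9.97 kb, was the longest of any histone connection in each condition.

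Both of these elements are thus annotated gene starts by RefSeq, while the tables class them as genic elements and not as promoters. A RefSeq start of any gene lay in 3 of 23 and 3 of 26 elements paired with histone genes (13.04% and 11.5%), against 3.999% and 3.73% of all listed elements. The 2 elements with the start of a histone gene accounted for 5 of 13 and 5 of 20 connections and for 21 of 96 and 28 of 112 pairs. Without these 2 elements 8 and 15 connections were left, and the members with more and fewer connections stayed at 7 and 1. The promoter sequences at the 2 starts are shown because they lie in or at the edge of the elements, in gene direction, with the same 3 motifs in capitals.
Hist1h1d, chr13:23554782-23555081, strand +: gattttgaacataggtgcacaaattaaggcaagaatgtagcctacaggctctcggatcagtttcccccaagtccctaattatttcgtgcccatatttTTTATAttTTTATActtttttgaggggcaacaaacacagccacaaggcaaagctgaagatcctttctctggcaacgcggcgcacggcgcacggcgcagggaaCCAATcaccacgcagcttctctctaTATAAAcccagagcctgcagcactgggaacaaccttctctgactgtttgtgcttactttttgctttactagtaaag
Hist1h2be, chr13:23585921-23586220, strand -: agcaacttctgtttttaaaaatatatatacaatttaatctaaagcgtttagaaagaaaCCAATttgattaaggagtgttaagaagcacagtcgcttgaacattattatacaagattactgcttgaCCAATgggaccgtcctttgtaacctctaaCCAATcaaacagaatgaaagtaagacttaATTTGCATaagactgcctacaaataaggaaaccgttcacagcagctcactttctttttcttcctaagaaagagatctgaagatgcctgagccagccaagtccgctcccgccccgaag
The Hist1h1d promoter held 1 CCAAT and 3 TATAAA matches. The Hist1h2be promoter held 3 CCAAT and 1 octamer and no TATAAA.

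Most of the gain in the second subcluster came with elements that were listed only in IFN-γ-OPCs. In the annotated UTR of Hist1h1d, beginning just after the capitals of its stem-loop sequence, chr13:23555804-23556303 had an activity of 2.02, 10 histone targets and 3 connections, with Hist1h1d (score 0.0829), Hist1h4f (0.0829) and Hist1h3e (0.0581). An element 634 bp from the RefSeq start of Hist1h3e, chr13:23563019-23563518, had an activity of 1.51, 7 histone targets and 1 connection, with Hist1h3e (0.0720). No element of the Ctr-OPC table overlapped either of them. Hist1h3e therefore went from 1 to 3 connections, the largest gain of any member, and Hist1h1d and Hist1h4f from 1 to 2. The percent of the gene total held by listed pairs was 10.2% and 23.1% for Hist1h1d and Hist1h4f and 10.3% and 21.9% for Hist1h3e. The middle 300 bases of the element in the UTR of Hist1h1d, which carries the most gained connections, are given for the plus strand of chr13:23555904-23556203, with CCAAT and TATAAA in capitals in either direction.
Element in the UTR of Hist1h1d: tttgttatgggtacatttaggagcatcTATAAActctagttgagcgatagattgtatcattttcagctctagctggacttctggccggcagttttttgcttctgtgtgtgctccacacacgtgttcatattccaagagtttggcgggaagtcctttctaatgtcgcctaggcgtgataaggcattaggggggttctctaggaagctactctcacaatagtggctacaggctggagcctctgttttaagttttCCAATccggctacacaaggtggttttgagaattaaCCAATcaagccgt
It held 2 CCAAT and 1 TATAAA. Over all elements of the IFN-γ-OPC table these letters were in the middle 300 bases of 30.9% and 10.8%.

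**Figure D2:**
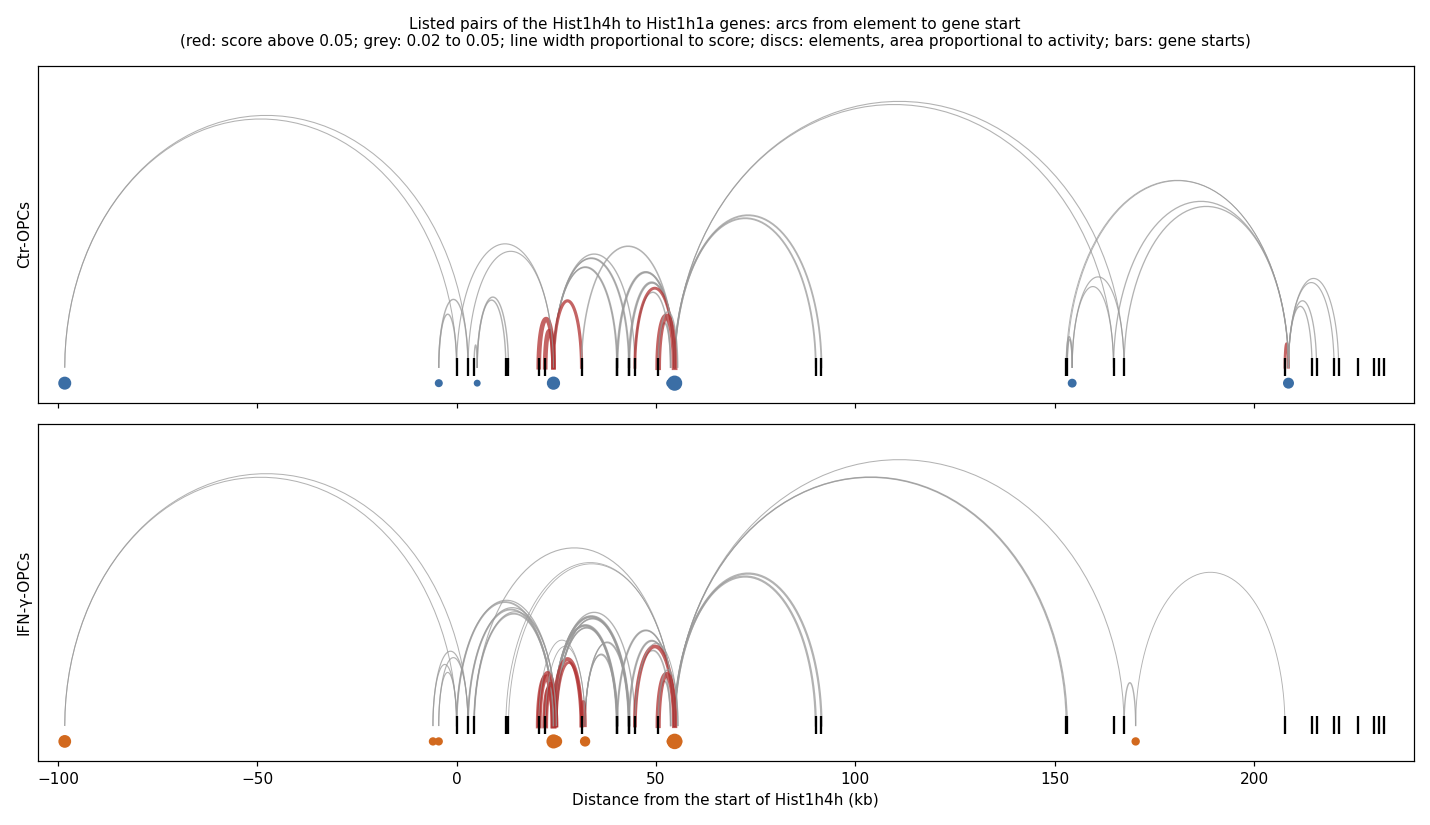
Listed pairs of the histone genes from Hist1h4h to Hist1h1a by distance from the start of Hist1h4h in kb, for Ctr-OPCs (top) and IFN-γ-OPCs (bottom), with arcs from element to gene start, red for scores above 0.05. The 2 most active elements in the histone genes, over Hist1h1d and Hist1h2be, carry more arcs than any other element in both conditions, and the element at Hist1h1c is drawn for Ctr-OPCs alone.

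The connection lost with IFN-γ was that of Hist1h1c, a somatic H1 gene. In Ctr-OPCs an element in its coding sequence and UTR, chr13:23739444-23739943, had an activity of 1.73, 9 histone targets and 1 connection (Hist1h1c, score 0.0612). No element of the IFN-γ-OPC table overlapped it, and the single pair left for Hist1h1c there scored 0.0202. The same element was the only element listed for Hist1h3c, Hist1h2bb, Hist1h2ab and Hist1h3b, which were listed in Ctr-OPCs alone. Hist1h1t, also listed in Ctr-OPCs alone, was paired with it too, at 0.0282. It had also been listed with Hfe, the iron regulator gene of the histone locus.

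In the first Hist1 subcluster the number of connections was 6 and 7. An intergenic element (chr13:21709968-21711237 in Ctr-OPCs, chr13:21710065-21711254 in IFN-γ-OPCs) connected with Hist1h2bl, Hist1h2ai and Hist1h3h, 3 genes of 1 bin, at scores of 0.0577 and 0.0505. These were the connections nearest to the cut-off in IFN-γ-OPCs. It was also listed with 13 and 9 other genes, among them the zinc finger genes Zkscan8 in both conditions and Zscan12 and Zkscan4 in Ctr-OPCs, and with the receptor gene Olfr1359. An element downstream of Hist1h1b, an H1 gene, whose IFN-γ-OPC interval reaches into its coding sequence, connected with Hist1h1b and the H3 gene Hist1h3i at 0.0565 in Ctr-OPCs versus 0.0647 in IFN-γ-OPCs. Its activity was 2.01 and 2.28 and its contact with them 0.0339 and 0.0428.

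Hist1h4n had a score of 0.149 in Ctr-OPCs with an element of activity 1.06 at 1.72 kb (chr13:21829882-21831077). In IFN-γ-OPCs 2 shorter elements, chr13:21829506-21830230 and chr13:21830302-21831054, overlapped that element and had activities of 0.514 and 0.599 and scores of 0.0848 and 0.0988. The gain from 1 to 2 connections is thus 1 element in one table against 2 in the other. The contact of all 3 pairs before the pseudocount equalled the power-law contact at that distance within 1e-06, so these scores are not read here as measured contact. No other histone pair had a contact equal to the power law, and over all genes 41 of 66637 and 56 of 71478 pairs had one. The pair of Hist1h4n with the element at Hist1h1b had a contact of 0.016558 in both conditions, although its distance was 52.74 and 52.62 kb. Its score was 0.0374 and 0.0499, and whether this contact was measured was not tested. The highest score of a histone pair of another gene was 0.125 in Ctr-OPCs (Hist1h4d) and 0.127 in IFN-γ-OPCs (Hist1h1d and Hist1h4f). Hist1h4n is also the member in that bin that was listed beside the unlisted Hist1h2ap and Hist1h2br, and its start region has a near-identical copy. Without the members that have such a copy there were 12 and 17 connections, and 5 members with more.

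Hist2 went from 1 to 4 connections. An element in the UTR of Hist2h4, an H4 gene (chr3:96262220-96262719 in Ctr-OPCs, chr3:96262237-96262736 in IFN-γ-OPCs), scored 0.0511 and 0.0609 with that gene. With Hist2h3b and Hist2h2bb, an H3 and an H2B gene of 1 bin, it scored 0.0431 and 0.0565, and so passed the cut-off in IFN-γ-OPCs only. Its activity was 1.55 and 1.61, and its contact with the latter genes 0.0469 and 0.0566. Hist2h3c2, an H3 gene, gained a connection with an intergenic element 1.33 kb away in IFN-γ-OPCs. The score was 0.0286 in Ctr-OPCs versus 0.0584 in IFN-γ-OPCs, the activity 0.667 and 1.024, and the element lay at chr3:96237126-96237625 and chr3:96237547-96238046, which overlap in part. The gene totals that divide these scores were smaller with IFN-γ, at 1.69 and 1.61 for Hist2h3b and Hist2h2bb and 1.341 and 1.251 for Hist2h3c2. The median log2 change of the total over all genes was -0.07. After subtracting it, the changes were -0.0014 and -0.0015 for Hist2h3b and Hist2h2bb and -0.034 for Hist2h3c2. Hist3h2a, the H2A gene of Hist3, had 1 pair in each condition, at 0.0294 and 0.0281, and its neighbour Hist3h2ba 1 pair in Ctr-OPCs at 0.0203.

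Connections were compared between conditions by overlap. Of the 13 in Ctr-OPCs, 12 (92.3%) overlapped a connection of the same gene in IFN-γ-OPCs, against 49.5% over all genes and 56.7% over protein-coding genes. With equal numbers of top-scoring pairs from both tables it was 9 of 13 (69.2%). Of the 20 in IFN-γ-OPCs, 13 (65.0%) were shared, against 46.3% and 53.0%, 3 were listed in Ctr-OPCs below the cut-off and 4 had no listed counterpart. Over all listed pairs 64.6% of 96 and 56.3% of 112 were shared, against 45.8% and 42.8%. Histone pairs share elements and bins, so these shares rest on few independent links: over distinct bins, 8 of 9 and 9 of 14 links were shared.

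**Figure D3:**
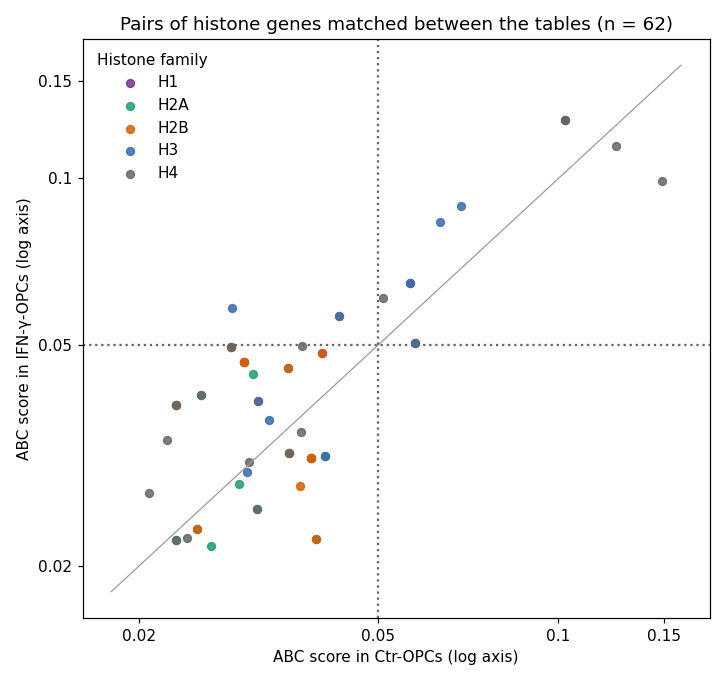
ABC score in IFN-γ-OPCs against Ctr-OPCs for the 62 pairs of histone genes whose elements match best in both tables, on log axes, with colours for histone families, the line of equality and dotted lines at 0.05. The 3 pairs above the horizontal cut-off and left of the vertical one are those of Hist2h3b and Hist2h2bb with the Hist2h4 element and of Hist2h3c2. Of the 62 pairs 34 score higher in IFN-γ-OPCs, against 15354 of 29858 matched pairs over all genes.

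Taking the 15 matched pairs with a connection in either condition, contact was higher in IFN-γ-OPCs for 11 and lower for 3, with a median log2 ratio of 0.16 (SD over pairs 0.17) against 0.05 over all genes. Over all genes contact was higher for 6296 and lower for 5151 of 11517 such pairs. Counted once per bin and element the 15 histone pairs were 10 links, of which 8 were higher, 1 lower and 1 equal, the last being that of Hist1h4n, with a median of 0.20 (SD over links 0.15). Element activity, over 7 elements, had a median log2 ratio of 0.06 (SD over elements 0.44) against -0.07, and 5 were higher, against 3353 of 7721 elements over all genes. With each table divided by its median the values were 0.17 for activity and 0.11 for contact, so which of them changed more depends on the scaling. The score was higher for 10 of the 15 pairs and lower for 5, or 7 and 3 of the 10 links. Over all genes it was higher for 5908 and lower for 5608 of 11517 pairs. Over all 62 matched histone pairs the median log2 ratio of contact was 0.13, with 39 higher and 21 lower. Over all genes this ratio was 0.05, with 16297 higher and 13138 lower of 29858 pairs. Of the 36 distinct histone links 23 were higher, 11 lower and 2, those of Hist1h4n, equal (SD over links 0.33). The scaling between the tables is not stated.

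Connections between histone subclusters were absent, and all 13 and 20 connections lay within the span of the target's own subcluster (first to last start with 10 kb on each side). Their longest distance was 9.97 kb, in IFN-γ-OPCs. Of all connections, 11.3% and 10.9% spanned over 100 kb and 2.33% and 2.17% over 1 Mb, and the Hist1 subclusters lie 1488 kb apart. With 9 and 14 distinct histone links, counts of 0 at these distances lie near those shares and are not read as a trait of the histone genes. Below the cut-off, 5 and 7 pairs had an element outside the histone spans and 3 pairs of IFN-γ-OPCs joined both Hist1 subclusters. The element over Hist1h1d was listed there with Hist1h4i, Hist1h2ag and Hist1h2bj, members of 1 bin 1512 to 1514 kb away, at a score of 0.0203 each. The contact of these pairs, 0.0092, was 10.7 times the power-law contact at that distance, and none of these pairs was listed in Ctr-OPCs. Pairs over 1 Mb made up 5.11% and 4.93% of all listed pairs and 0% and 2.68% of the histone pairs, so the link between both parts of Hist1 is 1 bin pair in 1 table.

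Contact relative to that of other genes depended on the distance. The 96 and 112 histone pairs are 56 and 65 distinct links of bin and element, so the pair counts below overstate the number of contact values. The pairs listed also differ between conditions. For histone pairs at 20 to 100 kb the median contact was 0.654 times the power law in Ctr-OPCs (26 pairs) and 0.831 times in IFN-γ-OPCs (32 pairs), against 0.563 and 0.618 over all genes. At 5 to 20 kb the values were 0.403 (47 pairs) and 0.517 (56 pairs), against 0.411 and 0.429. Under 5 kb they were 0.403 and 0.458 (19 pairs each), against 0.381 and 0.391. Beyond 100 kb the 4 histone pairs of Ctr-OPCs had a median of 1.11, against 1.65 over all genes. The 5 pairs of IFN-γ-OPCs had a median of 10.7, against 1.96, set by the 3 pairs of 1 bin with the element over Hist1h1d.

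**Figure D4:**
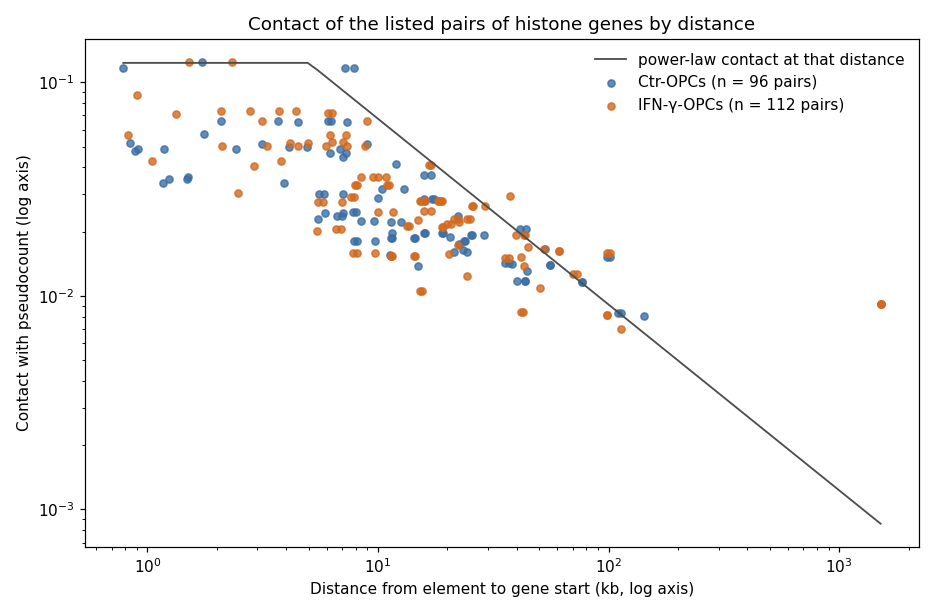
Contact with pseudocount against the distance from element to gene start in kb for the listed histone pairs (96 in Ctr-OPCs, 112 in IFN-γ-OPCs), on log axes, with the power-law contact as a line. Most pairs lie below the line under 20 kb and approach it from 20 to 100 kb, and the 3 overlapping points near 1512 kb in IFN-γ-OPCs lie above it.

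Elements of the histone clusters had many targets. Of the elements paired with a histone gene, 91.3% and 92.3% had at least 2 target genes of any kind, against 40.1% and 39.7% of all elements, and 11 of 23 and 15 of 26 had 8 or more, against 2.75% and 2.64%. The count reads gene density as well, since genes of 1 bin are listed together. Counted by bins, 15 of 23 and 14 of 26 elements were listed with histone genes of more than 1 bin. The elements were 12 genic and 11 intergenic in Ctr-OPCs and 13 and 13 in IFN-γ-OPCs, with a median activity of 1.55 and 1.501 against 0.866 and 0.803 over all elements.

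The gene total of the members was large and mostly stable. Its median was 1.41 in Ctr-OPCs versus 1.36 in IFN-γ-OPCs, against 0.963 and 0.916 over protein-coding genes. Listed pairs made up a median of 5.65% and 6.05% of it, against 6.65% and 7.09%, the rest lying in elements not listed, own and neighbouring promoters included. The second Hist1 subcluster had the largest totals, with medians of 1.65 and 1.68, and there the listed share went from 6.87% to 11.2%. Among the 49 members listed in both tables, 33 had a larger listed share with IFN-γ (67.3%, against 54.3% of all genes), which was 19 of 29 distinct bins.

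After subtracting the median change over 20321 genes (log2 -0.07), the median log2 change of the histone totals was 0.02 (SD over members 0.16), with 29 members above and 20 below 0. By cluster, all 10 Hist2 members, which occupy 7 bins, lay below 0 (median -0.05, from -0.21 to -0.0014). Of the Hist1 members 28 lay above and 10 below (median 0.04). Both medians are small beside the SD of 0.19 over all genes. In distinct bins of all clusters 16 were above and 13 below. Without the subtraction the median was -0.04, and without the Hist1 members it was -0.05. The difference between the clusters was not tested. The total was higher with IFN-γ by more than a log2 of 0.3219 for 2 of 49 members, against 6.85% of all genes, and lower by more than that for 2 of 49, against 1.03%. Each of these was a single bin. Hist1h1b and Hist1h3i stood at a centred log2 change of 0.39, from 1.201 to 1.51. Hist1h4d was next with 0.316, from 1.46 to 1.73, just under the threshold. Hist1h2bh and Hist1h3f stood at -0.34, from 2.12 to 1.60, and Hist1h3g stood at -0.24, from 2.11 to 1.71. The 3 largest totals of Ctr-OPCs were those of Hist1h2bh, Hist1h3f and Hist1h3g, neighbours in the second subcluster.

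Other genes of histone supply and replication are given for comparison. Of 11 histone genes outside the clusters, listed as replication-independent although H2afx carries the stem-loop, 6 were listed as targets, with 2 connections in Ctr-OPCs versus 3 in IFN-γ-OPCs. H3f3b, which encodes H3.3, had 1 in each at 0.0843 and 0.0939, and H2afz, which encodes H2A.Z, was listed in IFN-γ-OPCs alone with 1. Of 20 factors of histone gene expression and supply 16 were listed, with 7 and 8 connections, 2 genes having more (12.5%, against 14.9% of all genes) and 2 fewer (12.5%, against 13%). Among them Slbp, the stem-loop binding protein, had promoter quantiles of 0.994 and 0.997 and no connection. Coil, which encodes coilin, had 2 in each condition, and Npat was listed in neither. Of 27 DNA replication genes 23 were listed, with 6 and 7 connections, 2 having more (8.70%) and 1 fewer (4.35%). Cytosolic ribosomal protein genes, which like histone genes have strong promoters (median quantile 0.902 and 0.897), had 8 connections over 60 listed genes and 19 over 63. More connections were found in 11 ribosomal genes (16.2%, near the 14.9% of all genes) and fewer in 0 (0%, against 13%). The median centred log2 change of the total was -0.08, 0.03, -0.04 and -0.07 in these 4 lists, in the order named.

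The OPC markers Pdgfra, Cspg4, Ptprz1, Olig1, Olig2 and Sox10 were all listed in both conditions, with promoter quantiles from 0.815 to 0.994. Of the microglia markers 3 of 5 were listed in Ctr-OPCs (0.473 to 0.782) and 5 of 5 in IFN-γ-OPCs (0.471 to 0.825), of the astrocyte markers 2 of 3 in each, of the neuron markers 3 of 3 in each, and of the mature oligodendrocyte markers 2 of 3 and 3 of 3. These quantiles rank promoters and do not measure cell shares, and the part of other cells in the histone values was not tested. In bulk data fewer cells of a type and less signal per cell cannot be told apart.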

How the data were processed

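The series holds 6 H3K27ac HiChIP libraries, 3 per condition, grouped by the treatment in the labels. Alignment was to mm10 with HiC-Pro, per the submitters' processing notes, multimapping reads of the ATAC-seq input were removed, and contacts at 5 kb were combined with bulk ATAC-seq and H3K27ac CUT&RUN in the activity-by-contact model with default parameters. The labels give 1 table per condition for all 3 libraries. The deposited element activity is a signal derived by the authors from ATAC-seq and H3K27ac coverage. The deposited ABC score, power-law score and promoter activity quantile are fractions. Contacts and the products of activity and contact stand in the deposited tables on a score scale without a fixed range. Their scaling between conditions is not given in the sources used here. Depth is unknown from these tables, so no interval or floor that needs it is given.

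From these, connections (score above 0.05), the gene total (product divided by score) and matches by overlap of at least 1 bp were computed for all genes with Python 3.11.15, pandas 2.3.3, NumPy 2.4.6 and SciPy 1.17.1, and figures with matplotlib 3.10.9. A gene absent from a table counts as having 0 connections there. Symbols and annotation came from GENCODE M21, and sequences from GRCm38.p6, of which the 63 RefSeq promoters of members were read identically from the genome. All 67 members were matched to RefSeq genes by symbol or synonym and position, or by Ensembl identifier, and 62 had a promoter sequence. All 57 listed members had the annotated start in the tables. Copies were counted with BLAST 2.17.0. Positions are 1-based. The procedures were tested on simulated data with known answers.

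The members, the gene lists and the comparisons were chosen with earlier results of these data known. Members were named by their gain or loss of connections (5 each), change of the gene total (3 each way), scores (5 highest pairs per condition), and by the elements with most targets and longest connections (up to 3 per condition). The ribosomal list leaves out S6 kinase genes. Alternatives tried were the score cut-off, the power-law score, equal numbers of pairs, genes listed in both tables, the overlap rule, the cluster gap, 1 member per bin, the scaling, the fold, pseudogenes and leaving out Hist1. Leaving out elements at RefSeq starts and members with copies was added after seeing the data. Short tables with the same pairs and scores were not used.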

Additional observations from a re-analysis of the deposited data

How the results depend on the processing

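No paired analysis was possible because each condition has 1 pooled table, and for the same reason no replicate could be left out. Under 16 alternatives 92 values were recomputed; 66 stayed within 1.5 times of a count, within the 95% Wilson interval of a share, or within 1 SD over members or pairs of a median, and 26 moved. The median log2 change of the totals, 0.02, had the other sign with no centring (-0.04) and without the Hist1 members (-0.05), within the SD over members. With all deposited pairs, connections numbered 96 (Ctr-OPCs) and 112 (IFN-γ-OPCs), 23 members had more and 15 fewer, 64.6% of the Ctr-OPC pairs were shared, and 1 element had up to 11 and 14 histone targets. With a score above 0.1, there were 4 and 3 connections, so that Ctr-OPCs had more, 0 members had more with IFN-γ and 1 fewer, and the shared part in IFN-γ-OPCs was 100%. On the deposited power-law score, there were 35 and 38 connections, 7 members with fewer, and up to 6 histone targets of 1 element in each condition, against 3 and 3 in the main setting. With the 11648 top-scoring pairs of both tables, 4 members had fewer connections in place of 1. Without the Hist1 members, 1 and 4 connections were left and 0 totals passed the threshold either way. With 1 member per bin, 1 total was higher and 1 lower, and at 1.5-fold 0 and 0. Without the elements at RefSeq starts, 8 connections were left in Ctr-OPCs. The cause of these moves was not tested beyond what each setting removes or adds.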
